A study of Mus musculus with 12 samples.

Results

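The genotype comparison after 4 h of culture was made between 3 WT and 3 KO libraries of splenic follicular B cells, which are 6 of the 12 libraries of the series. The libraries were chosen by the column names of the 4 h count table, and all genes of that table entered. The table held 13142 genes, of which 11123 passed the filter on low counts and were tested. WT mice had the genotype Gpr174+/Y and KO mice Gpr174-/Y; *Gpr174* is on the X chromosome and all mice were male adults. In the KO allele the only coding exon of *Gpr174* was replaced in frame by a tdTomato reporter. The allele was made in embryonic stem cells of a 129 strain and backcrossed to C57BL/6J, and the receptor is lacking in every cell of the mouse, not in B cells alone. In both groups B cells were sorted from spleen as CD23+ CD21/35- cells and then held for 4 h in complete RPMI medium to which no ligand or other stimulus was added. Each group had 1 library from each of 3 mice, named WT1 to WT3 and KO1 to KO3 by the replicate number of the labels.

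GPR174 is a receptor for lysophosphatidylserine, a lipid that cells release. It couples to Gs, which activates adenylyl cyclase and so raises cyclic AMP. Cyclic AMP acts mainly through protein kinase A, which phosphorylates CREB, inactivates the salt-inducible kinases and so frees the CREB coactivators, and the response is limited by phosphodiesterases and by the inducible repressor encoded by *Crem*. Follicular B cells are resting, recirculating cells that carry the machinery to bind antigen, present it on MHC class II and receive T cell help.

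The 6 libraries held 6098941 to 9147799 counts, and log2 fold changes had a standard error of 0.111 in the median gene. WT1 stood apart from the other libraries. Its share of reads on *Rn45s*, the ribosomal RNA precursor, was 11.2%, against 6.65% to 8.29% in the other 5. On the second principal component of the 500 most variable genes (20.9% of the variance) WT1 lay at 13.9, WT2 and WT3 at -7.28 and -7.22, and KO1 to KO3 at 5.37, 0.404 and -5.22. The first component (48.5%) separated the genotypes, with WT libraries at -13.0 to -10.6 and KO libraries at 10.6 to 13.6. Without WT1 the edgeR test called 1088 genes, and 954 of the 1212 genes called with all libraries were among them. Counts of called genes and list medians without WT1 or another library are given below where they differ by over 1.5 times or change sign, and for medians under 0.1 in size the lowest and highest of those values are given. Every gene whose values are given library by library kept its call in each of the 6 fits that left out 1 library, unless a library is named beside it.

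All 10 defining B cell markers were tested in these libraries, and their summed level was 16065 to 19675 CPM in WT and 17788 to 18106 CPM in KO. Of these markers 1 was called higher in WT (2 without WT2 and 0 without KO1 or KO3) and 4 in KO, with a median log2 fold change of -0.13, or -0.21 without WT1. The 4 were *Cd22*, *Ms4a1*, *Pax5* and *Ptprc*, and the 1 was *Cd74*, all described below. *Cd79b*, a signaling chain of the antigen receptor, was at 1979, 1673 and 1767 CPM in WT and 1833, 1897 and 1899.6 CPM in KO, with a log2 fold change of -0.055 ± 0.065 (edgeR adjusted p = 0.678). Of the 4 follicular markers tested, *Cxcr5*, the receptor that guides B cells into follicles, was higher in WT by 0.47 ± 0.067 on the log2 scale. *Fcer2a*, which encodes CD23, was at 534, 555 and 551 CPM in WT and 1063, 1025 and 968 CPM in KO, with a log2 fold change of -0.90 ± 0.058 (edgeR adjusted p = 4.3e-08), all KO libraries being higher. *Cr2* (CD21/35) was higher in KO too, and CD23 and CD21/35 were the proteins used for the sort. *Ighd* and *Ighm* were not analysed here. Markers of other cells were also measured. The summed level of the T cell list was 20.9 to 33.6 CPM in WT and 25.2 to 43.4 CPM in KO, that of the NK cell list 5.51 to 13.9 CPM in WT and 4.08 to 11.3 CPM in KO, that of macrophages and monocytes 34.1 to 52.4 CPM in WT and 38.2 to 58.5 CPM in KO and that of neutrophils 33.9 to 63.2 CPM in WT and 23.5 to 126 CPM in KO. Of the T cell, NK cell and macrophage genes in the table, 5 of 10, 3 of 8 and 6 of 13 passed the filter on low counts. None of the tested members of the NK cell, macrophage and neutrophil lists was called by edgeR, DESeq2 or limma-voom, with 0, 0 and 1 of them at an unadjusted p under 0.05 by edgeR. A single neutrophil member was called without WT1 and 2 without KO1, and 1 macrophage member without KO1. A single T cell gene was called, *Lck*, at 16.04, 12.01 and 16.8 CPM in WT and 20.7, 21.7 and 27.3 CPM in KO (log2 fold change -0.62 ± 0.15, edgeR adjusted p = 0.0158). Without KO3 the *Lck* call was lost (log2 fold change -0.49, edgeR adjusted p = 0.0948). Of the 5 tested T cell genes 4 had a positive log2 fold change, opposite to *Lck*. Their median was 0.25, or 0.52 without WT1, 0.13 without KO1, 0.41 without KO2 and 1.21 without KO3. Without WT1, 1 T cell gene was called higher in WT. The erythroid list summed to 963 to 1352 CPM in WT and 722 to 1866 CPM in KO, highest in KO2, and none of its members was called (0 at an unadjusted p under 0.05), although 4 were called higher in WT when KO2 was left out. The part of these transcripts in the differences below was not tested. In bulk RNA, fewer cells of a type and less RNA per cell cannot be told apart.

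The edgeR quasi-likelihood test called 1212 of 11123 genes, or 10.9%, at an adjusted p under 0.05. Of these, 581 were higher in WT (5.22%) and 631 in KO (5.67%). These shares are the background for the counts of each list below. The largest differences lay on the WT side. More than a 2-fold difference was found for 108 called genes on the WT side and 41 on the KO side, and more than a 4-fold difference for 25 and 2. The median size of the log2 difference was nevertheless close, at 0.47 among genes higher in WT and 0.43 among those higher in KO. Libraries of the genotypes did not overlap for 3108 genes tested (27.9%), among them 578 of the 581 and 624 of the 631. Genes called in every fit that left out 1 library numbered 314 on the WT side and 303 on the KO side. Genes called higher in WT summed to 106476 CPM in WT and 76103 CPM in KO, and those higher in KO to 95396 CPM in WT and 126991 CPM in KO. In 4 bins of equal size by level, the share called was 4.57% in the lowest bin and 21.5% in the highest. The background shares were not matched for level, so a list of abundant genes can exceed them for that reason alone. Among long noncoding RNAs the split was uneven, with 7 on the WT side and 28 on the KO side of 391 tested.

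**Figure D1:**
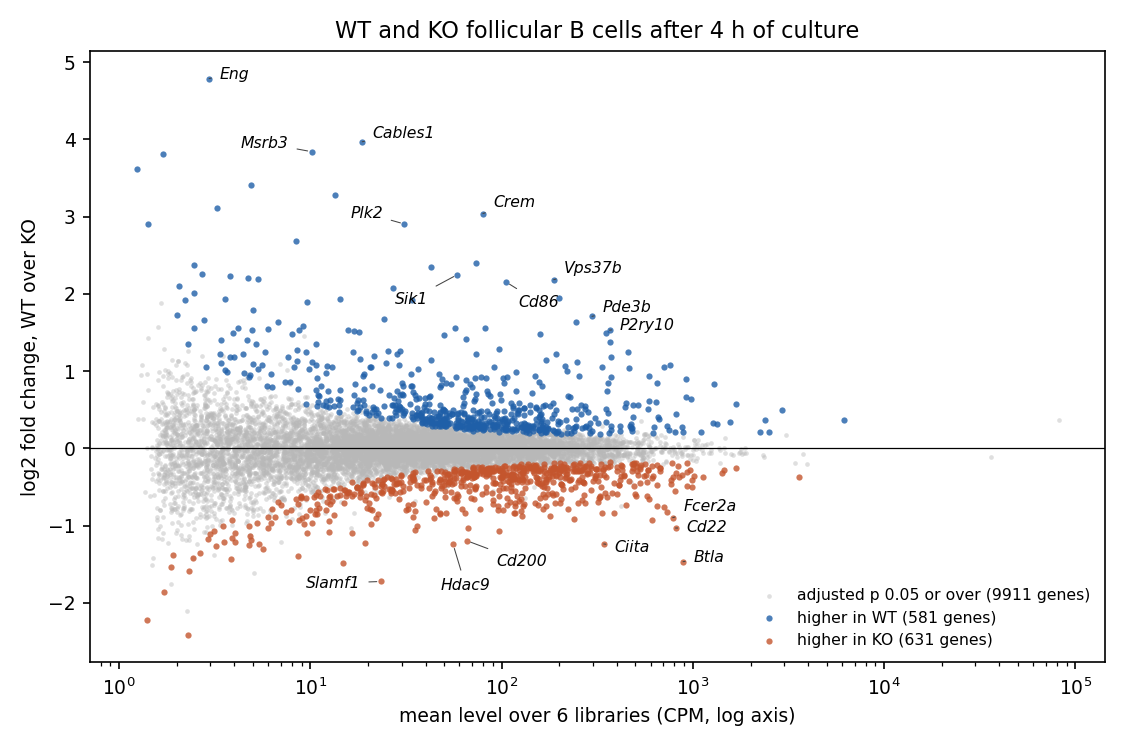
Each point is 1 of the 11123 genes tested, with its mean level over the 6 libraries (CPM, log axis) on the x axis and its log2 fold change, WT over KO, on the y axis; blue marks the 581 genes called higher in WT, orange the 631 called higher in KO and grey the rest. The points farthest from 0 are on the WT side, where 25 called genes differ by over 4-fold against 2 on the KO side.

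*Gpr174* itself was at 169, 176 and 158 CPM in WT and 122, 109.7 and 109 CPM in KO, with a log2 fold change of 0.56 ± 0.068 (edgeR adjusted p = 4.21e-05). The groups did not overlap, and by the fitted fold change the KO level was 67.9% of the WT level. The reads of the KO libraries were not resolved along the gene, so this value does not measure transcripts of the deleted exon. Of the other genes annotated within 1000000 bases, *P2ry10*, also a lysophosphatidylserine receptor, was higher in WT. *Itm2a* (log2 fold change 0.12 ± 0.35), *A630033H20Rik* (-0.082 ± 0.10) and *2610002M06Rik* (0.022 ± 0.087) were not called, and *Cysltr1* and *Gm5127* were not tested.

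The 15 named genes with the largest differences towards WT, all at 5 CPM or more in WT and called in every fit without 1 library, included genes read only a few times in KO. *Eng*, which encodes the TGF-β coreceptor endoglin, was at 6.52, 5.03 and 4.68 CPM in WT and 0.272, 0.124 and 0.141 CPM in KO. This rested on 39, 31 and 43 reads in WT and 2, 1 and 1 reads in KO, a ratio of 29.8 with a 95% exact binomial interval of 11.3 to 111 that covers counting error only. *Rnf125*, a ubiquitin ligase, was read 50, 56 and 78 times in WT and 3, 7 and 8 times in KO, a ratio of 10.8 (6.64 to 18.6). Both sets of libraries were widely separated. *Msrb3*, a methionine sulfoxide reductase, was at 13.9, 19.6 and 22.01 CPM in WT and 1.63, 1.36 and 0.845 CPM in KO, with a log2 fold change of 3.84 ± 0.27 (edgeR adjusted p = 1.14e-07). *Cables1*, which encodes an adaptor of cyclin-dependent kinases, was at 35.6, 30.04 and 39.01 CPM in WT and 1.90, 2.36 and 2.39 CPM in KO, with a log2 fold change of 3.97 ± 0.18 (edgeR adjusted p = 9.27e-10). In each of these genes the lowest WT library was several times above the highest KO library. Further genes among these 15 were *B3gnt7*, a glycosyltransferase (3.27), *Litaf*, an endosomal protein (2.40), *Rundc3b* (2.23), *Il1b*, the cytokine IL-1β (2.20), and *Vps37b*, a subunit of the ESCRT-I sorting complex (2.18), all as log2 fold changes. The polo-like kinase gene *Plk2* was at 53.5, 47.7 and 62.3 CPM in WT and 5.03, 9.80 and 6.90 CPM in KO, with a log2 fold change of 2.90 ± 0.17 (edgeR adjusted p = 1.82e-08), and its WT libraries lay far above its KO libraries.

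Genes at the start of the cyclic AMP pathway were called in both directions. Of 30 tested genes for the Gs protein, adenylyl cyclases, protein kinase A, its anchors and cyclic AMP effectors, 2 were higher in WT and 5 in KO, with a median log2 fold change of -0.051. In all 23.3% were called, against 10.9% of all genes tested and 21.5% of genes in the highest bin by level. The count higher in WT was 1 without KO1, and that higher in KO 3 without WT2, WT3, KO2 or KO3. *Gnas*, the Gsα subunit, was at 544, 519 and 543 CPM in WT and 547, 536 and 581 CPM in KO, with a log2 fold change of -0.051 ± 0.057 (edgeR adjusted p = 0.66), and its libraries overlapped. *Prkar1a*, the main regulatory subunit of protein kinase A, was at 595, 521 and 552 CPM in WT and 430.1, 438 and 393 CPM in KO, with a log2 fold change of 0.40 ± 0.065 (edgeR adjusted p = 0.000631), each WT library being above each KO library. *Rapgef4*, which encodes the cyclic AMP sensor EPAC2, was at 90.9, 89.1 and 61.99 CPM in WT and 136, 130.5 and 132 CPM in KO, with a log2 fold change of -0.73 ± 0.11 (edgeR adjusted p = 0.000284). *Adcy7*, an adenylyl cyclase of lymphocytes, was also higher in KO, by a log2 fold change of -0.33 ± 0.064 (edgeR adjusted p = 0.00327). *Rapgef3*, which encodes the related sensor EPAC1, was at 2.17, 1.30 and 1.63 CPM in WT and 3.81, 4.09 and 4.36 CPM in KO (log2 fold change -1.26 ± 0.31, edgeR adjusted p = 0.0152), and its call was lost without WT2 (log2 fold change -1.12, edgeR adjusted p = 0.0504), WT3 (adjusted p = 0.0677), KO2 (adjusted p = 0.0557) or KO3 (adjusted p = 0.0605). For these 3 genes all KO libraries were above the WT libraries.

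Phosphodiesterase genes, most of whose products degrade cyclic nucleotides, were mostly higher in WT where they were called. Of 14 tested, 6 were higher in WT against a background of 5.22%, 1 was higher in KO, and the median log2 fold change was 0.26. *Pde3b* was at 486, 438 and 441 CPM in WT and 122, 145 and 149.5 CPM in KO, with a log2 fold change of 1.71 ± 0.077 (edgeR adjusted p = 8.96e-10). *Pde4d* was at 45.6, 58.6 and 57.3 CPM in WT and 12.7, 12.5 and 17.6 CPM in KO, with a log2 fold change of 1.93 ± 0.14 (edgeR adjusted p = 1.59e-07). In both, the lowest WT library was far above the highest KO library. *Pde7b* was at 6.85, 9.25 and 6.54 CPM in WT and 1.36, 1.12 and 2.39 CPM in KO (log2 fold change 2.21 ± 0.32, edgeR adjusted p = 0.000202). *Pde8a* was at 27.2, 26.6 and 28.8 CPM in WT and 13.2, 13.9 and 12.8 CPM in KO (log2 fold change 1.05 ± 0.12, edgeR adjusted p = 1.99e-05), again without overlap. *Pde4b*, named after its values were seen, was higher in WT by a log2 fold change of 0.51 ± 0.057 (edgeR adjusted p = 1.74e-05). The member higher in KO, *Pde7a*, differed by a log2 fold change of -0.26 ± 0.074 (edgeR adjusted p = 0.0317) and was not called without WT1 (log2 fold change -0.19, edgeR adjusted p = 0.08), WT3 (adjusted p = 0.0711), KO1 (adjusted p = 0.122) or KO2 (adjusted p = 0.134), which left 0 genes higher in KO. *Pde1b* (log2 fold change 0.066 ± 0.11), *Pde12* (0.012 ± 0.12) and *Pde6d* (0.0065 ± 0.13), the most abundant members that were not called, lay close to 0. *Pde12* and *Pde6d* do not encode enzymes that degrade cyclic nucleotides, but were counted among the 14.

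Among 15 tested genes of CREB, its coactivators and the salt-inducible kinases, 5 were higher in WT and 0 in KO (median 0.15, or 0.094 without WT1; 8 of the 15 were at an unadjusted p under 0.05, and DESeq2 called 6 and limma-voom 5). The count higher in WT was 3 without KO1, KO2 or KO3, and that higher in KO was 1 without WT3 or KO1. *Crem*, whose short product ICER represses CREB targets, was at 126, 131 and 169 CPM in WT and 15.6, 17.5 and 18.9 CPM in KO, with a log2 fold change of 3.04 ± 0.12 (edgeR adjusted p = 3.37e-10). *Sik1* was at 103, 93.4 and 96.2 CPM in WT and 19.7, 19.6 and 22.1 CPM in KO, with a log2 fold change of 2.25 ± 0.087 (edgeR adjusted p = 3.37e-10). Both had all WT libraries several times above all KO libraries. *Sik3* was at 142, 143 and 148 CPM in WT and 100.4, 103 and 102 CPM in KO (log2 fold change 0.50 ± 0.06, edgeR adjusted p = 3.83e-05), a smaller difference without overlap. *Creb1* itself was not called (log2 fold change -0.15 ± 0.057), nor were its coactivators *Crebbp* (0.067 ± 0.058) and *Ep300* (-0.0013 ± 0.056).

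Immediate early transcription factors, which are transcribed within minutes of a signal from proteins already present, were mostly higher in WT where they were called. Of 30 tested, 11 were higher in WT and 3 in KO (median 0.21, or 0.12 without WT1 and 0.072 without KO1). The first count was 7 without WT3, and the second 1 without KO2. *Fosl2*, a FOS-family partner in AP-1, was at 14.5, 11.9 and 16.2 CPM in WT and 1.36, 2.73 and 2.53 CPM in KO, with a log2 fold change of 2.68 ± 0.25 (edgeR adjusted p = 2.71e-06). The orphan nuclear receptor gene *Nr4a2* was at 7.85, 7.31 and 7.30 CPM in WT and 2.31, 1.61 and 2.53 CPM in KO, with a log2 fold change of 1.80 ± 0.26 (edgeR adjusted p = 0.000263). For both genes the libraries of the genotypes were far apart. *Fos* was at 4.18, 2.60 and 4.58 CPM in WT and 0.816, 1.24 and 1.55 CPM in KO (log2 fold change 1.66 ± 0.37, edgeR adjusted p = 0.00747); without WT3 its call was lost (log2 fold change 1.48, edgeR adjusted p = 0.0532). *Nr4a3* (log2 fold change 1.53 ± 0.25), *Nr4a1* (0.88 ± 0.11) and *Junb* (0.97 ± 0.13), named after their values were seen, were also higher in WT. *Egr1* ran the other way, at 65.2, 50.98 and 46.1 CPM in WT and 65.8, 79.7 and 68.4 CPM in KO (log2 fold change -0.41 ± 0.11, edgeR adjusted p = 0.0292); its call was lost without WT2 (log2 fold change -0.38, edgeR adjusted p = 0.0537), WT3 (adjusted p = 0.147), KO2 (adjusted p = 0.162) or KO3 (adjusted p = 0.062). *Egr3* (log2 fold change -0.62 ± 0.15, edgeR adjusted p = 0.012) was likewise higher in KO, and it too lost its call without KO2 (log2 fold change -0.51, edgeR adjusted p = 0.0832). *Id3*, an inhibitor of E-protein transcription factors, was higher in KO by a log2 fold change of -0.40 ± 0.073 (edgeR adjusted p = 0.00187). Expression of *Myc* (log2 fold change -0.14 ± 0.091), *Klf6* (0.067 ± 0.071) and *Ier5* (-0.16 ± 0.072) did not pass the test, *Ier5* being called higher in KO without WT3 (log2 fold change -0.25, edgeR adjusted p = 0.0344).

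Feedback phosphatases and RNA-decay factors, which shut such signals off, followed with 11 of 28 higher in WT and 2 in KO (median 0.24, or 0.11 without WT3 and 0.12 without KO1). The latter count was 1 without WT1, KO2 or KO3. *Dusp1*, a phosphatase of MAP kinases, was at 26.1, 20.8 and 27.02 CPM in WT and 10.1, 12.03 and 10.98 CPM in KO, with a log2 fold change of 1.16 ± 0.14 (edgeR adjusted p = 5.1e-05). *Trib1*, a pseudokinase that targets proteins for degradation, was at 35.9, 32.3 and 33.6 CPM in WT and 16.5, 14.8 and 15.9 CPM in KO (log2 fold change 1.11 ± 0.11, edgeR adjusted p = 5.99e-06), and *Ppp1r15a*, which restores translation after stress, was higher in WT by a log2 fold change of 0.85 ± 0.14 (edgeR adjusted p = 0.000792). All WT libraries were above all KO libraries in these 3 genes. *Dusp5* was read 38, 33 and 45 times in WT and 2, 6 and 6 times in KO, a ratio of 8.75 with a 95% exact binomial interval of 5.01 to 16.5. *Trib2* was higher in KO (log2 fold change -0.45 ± 0.067, edgeR adjusted p = 0.000284). *Zfp36* (log2 fold change 0.017 ± 0.067) and *Btg1* (0.083 ± 0.056), which promote mRNA decay and growth arrest, were not called.

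**Figure D2:**
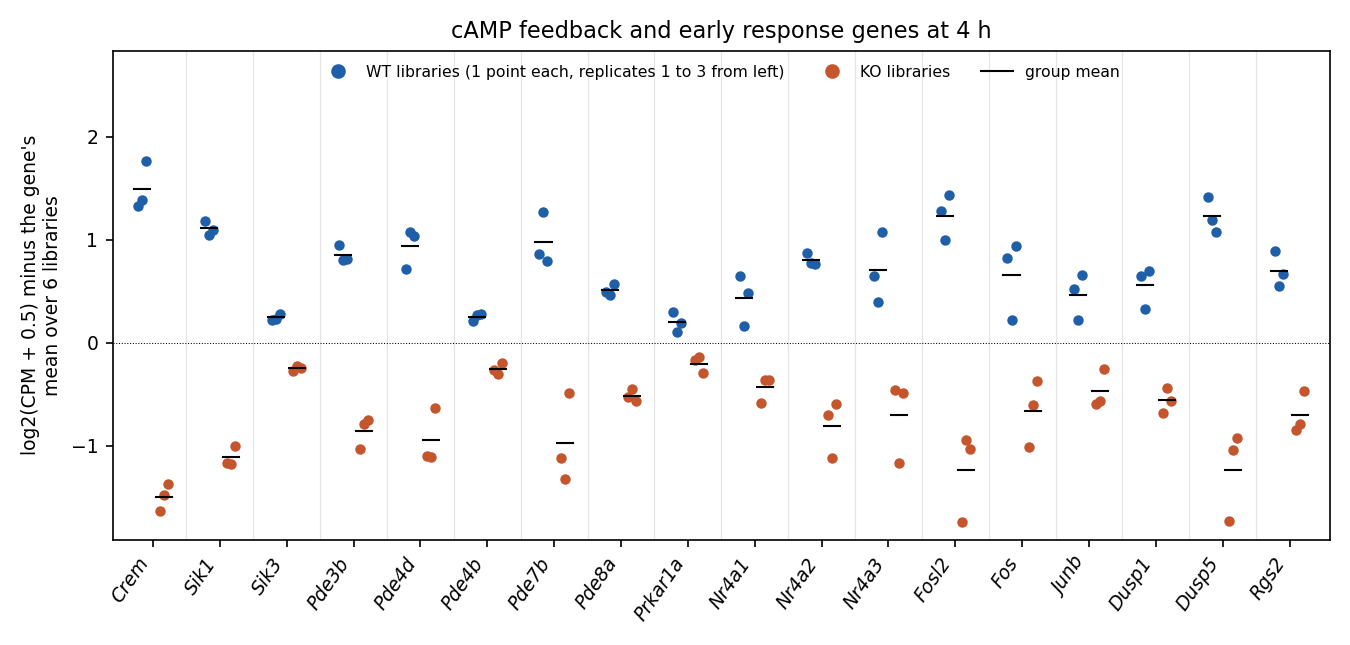
Each point is 1 library, plotted as log2(CPM + 0.5) minus the mean of the gene over the 6 libraries; blue is WT, orange is KO, replicates 1 to 3 run from left to right and the bar is the group mean. WT points are above KO points in all 18 genes, with the widest gaps in *Crem*, *Dusp5*, *Fosl2* and *Sik1*.

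Promoter sequences of 4 of the genes higher in WT are shown because protein kinase A acts through CREB, which binds the cyclic AMP response element TGACGTCA (CRE) or its shorter form TGACG (short CRE); that of *Slamf1*, the first of the 15 named genes higher in KO, is shown beside them. The 4 were chosen after the search, for holding the motif. They run from 250 bases before to 50 bases after the start site, 5′ to 3′ on the strand of the gene, from RefSeq on GRCm38.p6, and capitals mark each short CRE on either strand, so that a full CRE appears as 8 capitals. The windows are chr13:110394794-110395093 (+ strand) for *Plk2*, chr17:26508423-26508722 (- strand) for *Dusp1*, chr2:57123954-57124253 (- strand) for *Nr4a2*, chr4:48045055-48045354 (+ strand) for *Nr4a3* and chr1:171766882-171767181 (+ strand) for *Slamf1*.
Plk2: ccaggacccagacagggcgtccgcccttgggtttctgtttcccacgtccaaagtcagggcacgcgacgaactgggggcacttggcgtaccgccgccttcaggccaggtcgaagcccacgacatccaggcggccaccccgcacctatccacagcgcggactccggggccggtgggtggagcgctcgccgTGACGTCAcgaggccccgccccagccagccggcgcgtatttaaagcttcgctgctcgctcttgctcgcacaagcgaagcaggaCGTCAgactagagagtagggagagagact
Dusp1: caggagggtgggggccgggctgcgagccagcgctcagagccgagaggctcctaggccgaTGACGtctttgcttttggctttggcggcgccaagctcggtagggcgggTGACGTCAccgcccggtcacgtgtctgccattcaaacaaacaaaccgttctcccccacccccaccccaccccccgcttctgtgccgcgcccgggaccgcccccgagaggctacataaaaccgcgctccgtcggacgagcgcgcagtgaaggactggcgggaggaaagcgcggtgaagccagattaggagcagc
Nr4a2: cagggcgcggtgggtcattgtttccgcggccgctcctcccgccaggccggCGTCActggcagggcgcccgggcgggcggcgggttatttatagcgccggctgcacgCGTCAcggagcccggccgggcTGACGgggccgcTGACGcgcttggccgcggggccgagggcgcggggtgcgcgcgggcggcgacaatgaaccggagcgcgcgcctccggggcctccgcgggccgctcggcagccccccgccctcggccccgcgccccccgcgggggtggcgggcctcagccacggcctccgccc
Nr4a3: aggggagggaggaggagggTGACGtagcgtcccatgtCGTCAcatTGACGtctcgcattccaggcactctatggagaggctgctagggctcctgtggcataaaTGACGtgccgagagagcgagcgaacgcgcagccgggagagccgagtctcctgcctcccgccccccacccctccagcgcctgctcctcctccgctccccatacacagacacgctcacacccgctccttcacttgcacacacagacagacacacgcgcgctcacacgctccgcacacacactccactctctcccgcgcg
Slamf1: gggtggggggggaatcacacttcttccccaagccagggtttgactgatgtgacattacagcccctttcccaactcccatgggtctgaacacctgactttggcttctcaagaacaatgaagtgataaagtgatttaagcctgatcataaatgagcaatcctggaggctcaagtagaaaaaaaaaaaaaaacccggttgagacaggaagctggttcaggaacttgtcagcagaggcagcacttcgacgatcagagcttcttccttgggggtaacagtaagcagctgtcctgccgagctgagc
*Plk2* and *Dusp1* each held 1 full CRE, starting at -62 and -143 from the start site. *Nr4a2* and *Nr4a3* each held 4 short CREs and no full CRE. The *Slamf1* window held neither, which says only that these letters are not in this window.

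Over whole groups of genes the same motif was counted on both strands, a short CRE being also counted within every full CRE. A promoter entry was matched for 450 of the 581 genes higher in WT, 493 of the 631 higher in KO and 8893 of the 11123 tested. A short CRE was present in 46.4% of matched genes higher in WT, in 32.5% of those higher in KO, in 36.8% of all tested genes matched and in 23.0% of all genes with a promoter entry. A full CRE was present in 4.67%, 1.62%, 3.78% and 2.03% of them. Restricting to genes called with over a 2-fold difference gave a short CRE in 41.0% of 83 matched genes higher in WT and in 20.7% of 29 higher in KO. Of the 15 named genes with the largest differences in each direction, 4 of 10 matched genes on the WT side held it (1 with a full CRE) and 2 of 12 on the KO side. Among called members of the lists, it was present in 7 of 9 matched immediate early genes and 6 of 9 matched feedback genes higher in WT (*Dusp1*, *Ppp1r15a* and *Btg2* with a full CRE; *Btg2* was named for this motif), in 3 of 5 matched phosphodiesterases and in 3 of 11 matched cytokine receptor and SOCS genes. Lists higher in KO differed among themselves. It was present in 5 of 9 matched cholesterol genes, 3 of 5 genes of the Gs and protein kinase A list, 2 of 4 BCL2 family genes and both fatty acid genes higher in KO, and in none of the 10 matched MHC class II genes, 10 B cell receptor genes and 8 costimulatory genes. A match describes the letters in the window and does not show binding, and these shares were not tested.

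Receptors for chemoattractants and lipids, which set where B cells move, were called in 9 of 27 genes higher in WT and 3 in KO, with a median of 0.0088, or -0.028 without KO2 and 0.20 without KO3. *P2ry10* was at 539.5, 509 and 583 CPM in WT and 178, 198 and 189 CPM in KO, with a log2 fold change of 1.53 ± 0.067 (edgeR adjusted p = 7.4e-10). *Ccr7*, which draws B cells to the T cell zone, was at 538, 480.4 and 527 CPM in WT and 218, 221 and 245 CPM in KO (log2 fold change 1.18 ± 0.066, edgeR adjusted p = 1.04e-08). *Gpr171* was at 610.4, 659 and 655 CPM in WT and 229, 282 and 298 CPM in KO (log2 fold change 1.25 ± 0.082, edgeR adjusted p = 5.13e-08). In these 3 genes the groups did not overlap. *Ptger4*, the Gs-coupled prostaglandin receptor EP4, was higher in WT by a log2 fold change of 1.20 ± 0.16 (edgeR adjusted p = 0.000113), and *Lpar6*, a lysophosphatidic acid receptor, higher in KO by a log2 fold change of -0.42 ± 0.094 (edgeR adjusted p = 0.0085). *Cxcr4* (log2 fold change 0.35 ± 0.19), *S1pr1* (-0.087 ± 0.063) and *Gpr183* (0.15 ± 0.064), which also guide B cells, were not called, but without WT1 *Cxcr4* was called higher in WT (log2 fold change 0.60, edgeR adjusted p = 0.00191). In a separate list of 23 genes of G-protein subunits, receptor kinases and RGS proteins, 1 was called and 8 were at an unadjusted p under 0.05. The G-protein subunit genes *Gnb1* (higher in WT) and *Gng2* (higher in KO) were called in the Gs list above. The gene called here was *Rgs2*, an inhibitor of G-protein signaling, at 107, 84.9 and 91.96 CPM in WT and 31.97, 33.2 and 41.5 CPM in KO (log2 fold change 1.41 ± 0.11, edgeR adjusted p = 2.96e-07), with each WT library above each KO library. In this list the number higher in WT was 2 without WT2, and that higher in KO 1 without WT2 or KO1. Among 24 integrin and adhesion genes 2 were higher in WT and 4 in KO (median -0.022, or -0.036 without WT2). *Itgb3*, the β3 integrin subunit, was at 268, 335 and 349.7 CPM in WT and 73.05, 82.6 and 91.5 CPM in KO (log2 fold change 1.95 ± 0.10, edgeR adjusted p = 3.47e-09), and its partner *Itgav* at 95.9, 119 and 114 CPM in WT and 78.2, 81.4 and 76.4 CPM in KO (log2 fold change 0.48 ± 0.081, edgeR adjusted p = 0.000845). Both subunits were higher in every WT library. The platelet marker list, which holds *Itgb3*, summed to 277 to 355 CPM in WT and 82.2 to 99.7 CPM in KO, and *Itgb3* was the only one of its 3 tested members called (*Itga2b* -0.019 ± 0.37 and *Gp1ba* -0.42 ± 0.26 as log2 fold changes). *Itgb7*, which serves homing to the gut, was higher in KO (log2 fold change -0.50 ± 0.072, edgeR adjusted p = 0.000224).

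Costimulatory and activation surface molecules split by gene. Of 21 tested, 3 were higher in WT and 9 in KO (median -0.20, or -0.32 without WT3). *Cd86*, the ligand of CD28 that rises on activated B cells, was at 189.6, 151 and 176 CPM in WT and 38.1, 37.5 and 40.7 CPM in KO, with a log2 fold change of 2.15 ± 0.088 (edgeR adjusted p = 3.37e-10). *Cd83*, which stabilises MHC class II and CD86 at the surface, was at 263, 267 and 294 CPM in WT and 146, 178 and 191 CPM in KO (log2 fold change 0.68 ± 0.084, edgeR adjusted p = 4.8e-05). For both genes the WT libraries were all higher. *Il2ra*, also called higher in WT (log2 fold change 0.55 ± 0.13, edgeR adjusted p = 0.0125), lost its call without WT1 (log2 fold change 0.44, edgeR adjusted p = 0.0541), KO1 (adjusted p = 0.0601) or KO2 (adjusted p = 0.0548). The SLAM-family receptor gene *Slamf1* was at 9.69, 12.5 and 9.81 CPM in WT and 34.1, 39.2 and 31.7 CPM in KO, with a log2 fold change of -1.72 ± 0.14 (edgeR adjusted p = 4.95e-07), and its KO libraries all lay well above its WT libraries. *Cd84* (log2 fold change -0.65 ± 0.079, edgeR adjusted p = 4e-05) and *Slamf7* (log2 fold change -0.51 ± 0.056, edgeR adjusted p = 1.42e-05), of the same family, and *Cd38*, an ectoenzyme (log2 fold change -0.65 ± 0.074, edgeR adjusted p = 2.12e-05), were also higher in KO. *Ly9* (log2 fold change -0.16 ± 0.067), another SLAM-family gene, was not called.

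A list of inhibitory surface molecules and phosphatases showed the same split, with 2 of 23 higher in WT and 7 in KO (median -0.094, or -0.15 without WT2 and -0.14 without KO1). *Btla*, which restrains B cells on binding HVEM, was at 436, 507 and 469 CPM in WT and 1388, 1333 and 1183 CPM in KO, with a log2 fold change of -1.47 ± 0.073 (edgeR adjusted p = 2.68e-09). *Cd22*, the sialic acid receptor that dampens antigen receptor signals, was at 516, 534 and 546 CPM in WT and 1098, 1061 and 1106 CPM in KO (log2 fold change -1.03 ± 0.056, edgeR adjusted p = 6.41e-09). *Cd200* was at 45.9, 35.7 and 37.4 CPM in WT and 86.1, 96.5 and 88.8 CPM in KO (log2 fold change -1.20 ± 0.094, edgeR adjusted p = 3.99e-07). In each, all KO libraries lay above all WT libraries. *Lilrb4* was higher in KO by a log2 fold change of -0.78 ± 0.17 (edgeR adjusted p = 0.00824). On the WT side stood *Ptprj*, the receptor phosphatase CD148, at 447, 457 and 451 CPM in WT and 208, 223 and 223 CPM in KO (log2 fold change 1.05 ± 0.057, edgeR adjusted p = 6.41e-09). *Inpp5d*, the lipid phosphatase SHIP1, was at 493, 482 and 498 CPM in WT and 246, 266 and 263 CPM in KO (log2 fold change 0.93 ± 0.057, edgeR adjusted p = 2.62e-08), without overlap in either. *Siglecg* (log2 fold change -0.20 ± 0.065), *Fcrl1* (0.023 ± 0.056) and *Fcrla* (0.13 ± 0.059) were not called, *Siglecg* being called higher in KO without WT2 (log2 fold change -0.24, edgeR adjusted p = 0.0344).

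**Figure D3:**
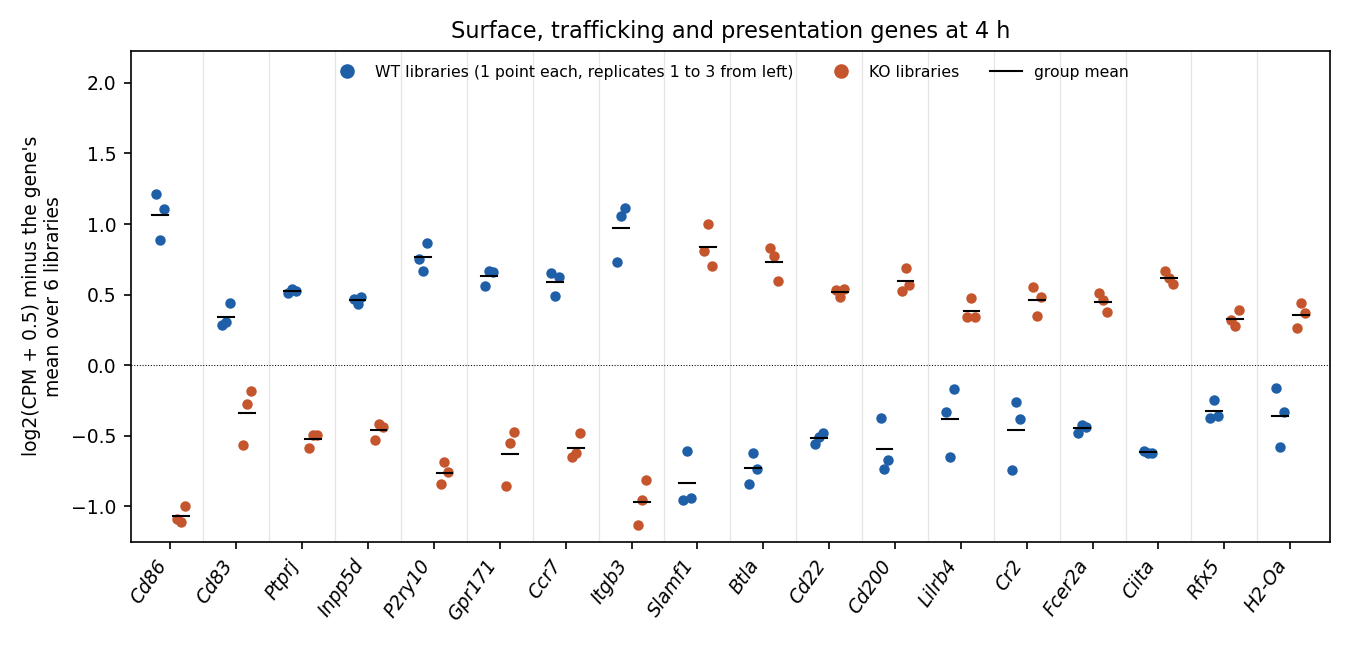
Each point is 1 library, plotted as log2(CPM + 0.5) minus the mean of the gene over the 6 libraries; blue is WT, orange is KO and the bar is the group mean. From *Cd86* to *Itgb3* the WT points are higher and from *Slamf1* to *H2-Oa* the KO points are higher, with no overlap in any of the 18 genes.

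MHC class II presentation genes were mostly higher in KO where they were called. Of 19 tested, 11 were higher in KO against a background of 5.67%, 2 were higher in WT, and the median was -0.25. In the highest bin by level, 353 of 2781 genes were higher in KO. *Ciita*, the master transactivator of class II genes, was at 205, 202 and 202 CPM in WT and 495, 477 and 464 CPM in KO, with a log2 fold change of -1.24 ± 0.056 (edgeR adjusted p = 9.46e-10). *Rfx5*, a subunit of the factor that binds class II promoters, was at 94.4, 103 and 95.2 CPM in WT and 153, 148 and 161 CPM in KO (log2 fold change -0.66 ± 0.065, edgeR adjusted p = 4.74e-06). *H2-Oa*, which tempers peptide loading by H2-DM, was at 100.4, 75.3 and 89.4 CPM in WT and 135, 153 and 146 CPM in KO (log2 fold change -0.71 ± 0.088, edgeR adjusted p = 4.98e-05), and the loading subunit *H2-DMb1* was higher in KO by a log2 fold change of -0.45 ± 0.075 (edgeR adjusted p = 0.000771). For each of these genes the KO libraries were all above the WT libraries. The peptide-presenting chain *H2-Eb1*, named after its values were seen, was higher in KO by a log2 fold change of -0.25 ± 0.068 (edgeR adjusted p = 0.0269), a call held without WT1 but lost without WT2, WT3, KO1, KO2 or KO3 (edgeR adjusted p 0.0506 to 0.118). *H2-Aa* and *H2-Ab1* were not called with all libraries. *H2-Aa* was at 4171, 3206 and 3692 CPM in WT and 4176, 4349 and 4178 CPM in KO (log2 fold change -0.20 ± 0.078, edgeR adjusted p = 0.128). *H2-Ab1* was at 3401, 2873 and 3257 CPM in WT and 3557, 3629 and 3652 CPM in KO (log2 fold change -0.19 ± 0.065, edgeR adjusted p = 0.084), with KO libraries above WT libraries by a small margin. Without WT1 both were called higher in KO (*H2-Aa*, log2 fold change -0.30, edgeR adjusted p = 0.00538, and *H2-Ab1*, log2 fold change -0.24, edgeR adjusted p = 0.017). *Cd74*, the invariant chain, was higher in WT (log2 fold change 0.37 ± 0.094, edgeR adjusted p = 0.0178). The call of *Cd74* was lost without KO1 (log2 fold change 0.35, edgeR adjusted p = 0.0793) or KO3 (adjusted p = 0.0748), and the count higher in WT was 1 without WT1, WT3 or KO2 and 0 without KO1 or KO3. *Dexi*, called higher in KO (log2 fold change -1.06 ± 0.10, edgeR adjusted p = 3.69e-06), has an annotated span that overlaps that of *Ciita*, and without strand information their shared reads cannot be assigned.

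B cell receptor signaling genes were called higher in KO in 15 of 38 and higher in WT in 3 (median -0.10; 5 without WT2 for the latter). *Cr2*, the complement receptor, was at 134, 187 and 172 CPM in WT and 330.1, 286 and 314 CPM in KO (log2 fold change -0.91 ± 0.10, edgeR adjusted p = 9.22e-06). *Ms4a1* (CD20) was at 337, 403 and 449 CPM in WT and 596, 576 and 622 CPM in KO (log2 fold change -0.59 ± 0.083, edgeR adjusted p = 0.000168). *Prkcb*, a kinase that links the receptor to NF-κB, was at 694, 639 and 610.5 CPM in WT and 1029, 920.03 and 912 CPM in KO (log2 fold change -0.56 ± 0.067, edgeR adjusted p = 3.51e-05). In these genes each KO library was higher. *Fyn*, a SRC-family kinase, was at 94.7, 89.3 and 98.8 CPM in WT and 49.5, 51.8 and 48.8 CPM in KO (log2 fold change 0.91 ± 0.074, edgeR adjusted p = 4.99e-07), higher in each WT library, and the calcium channel gene *Itpr3* was higher in WT by a log2 fold change of 0.51 ± 0.056 (edgeR adjusted p = 1.47e-05). *Cd79b* and *Syk* (log2 fold change 0.024 ± 0.062), at the receptor itself, were not called.

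Of 42 B cell identity and quiescence factors, 6 were higher in WT (3 without KO2) and 12 in KO, with a median of -0.041. The class IIa histone deacetylase gene *Hdac9* was at 35.3, 34.3 and 29.3 CPM in WT and 74.1, 76.3 and 82.2 CPM in KO (log2 fold change -1.24 ± 0.091, edgeR adjusted p = 1.72e-07). *Hdac7* was at 73.9, 71.1 and 64.4 CPM in WT and 128, 113 and 120.1 CPM in KO (log2 fold change -0.79 ± 0.075, edgeR adjusted p = 3.27e-06). *Bcl6*, the repressor needed for germinal centres, was at 125, 134 and 135 CPM in WT and 215, 190.5 and 189 CPM in KO (log2 fold change -0.59 ± 0.067, edgeR adjusted p = 1.9e-05). KO libraries were the higher ones in all 3 genes. The MEF2 factor gene *Mef2d* was higher in WT by a log2 fold change of 0.55 ± 0.057 (edgeR adjusted p = 8.49e-06), and *Pou2af1*, a B cell coactivator and one of the most abundant called genes, by a log2 fold change of 0.37 ± 0.062 (edgeR adjusted p = 0.000869). *Pax5*, which maintains B cell identity, was at 231, 223 and 221 CPM in WT and 306, 303 and 301 CPM in KO (log2 fold change -0.43 ± 0.055, edgeR adjusted p = 6.85e-05), higher in each KO library. *Foxp1* (log2 fold change 0.13 ± 0.063), *Notch2* (0.065 ± 0.057) and *Ets1* (-0.015 ± 0.057) were not called.

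Cytokine receptors and SOCS genes were called higher in WT in 12 of 35 and higher in KO in 4 (median 0.11, or 0.18 without WT1). *Stat3* was at 314, 344 and 355 CPM in WT and 150.04, 154 and 165 CPM in KO, with a log2 fold change of 1.11 ± 0.065 (edgeR adjusted p = 1.55e-08), and *Socs3*, its feedback inhibitor, at 8.69, 11.2 and 13.6 CPM in WT and 5.71, 5.83 and 3.80 CPM in KO (log2 fold change 1.14 ± 0.23, edgeR adjusted p = 0.00361). *Tnfrsf1b* (TNF receptor 2) was at 71.3, 65.6 and 81.8 CPM in WT and 22.99, 26.8 and 29.6 CPM in KO (log2 fold change 1.47 ± 0.11, edgeR adjusted p = 2.11e-07). All WT libraries were higher in these genes. *Cish*, a STAT5 target, was read 14, 17 and 13 times in WT and 0, 5 and 1 times in KO, a ratio of 7.74 with a 95% exact binomial interval of 3.29 to 22.2. *Il4ra* (log2 fold change -0.39 ± 0.058, edgeR adjusted p = 0.000273) and *Il21r* (log2 fold change -0.36 ± 0.057, edgeR adjusted p = 0.000437), receptors for T cell help, were higher in KO. Genes of BAFF and TNF receptors, TRAFs and NF-κB were called in both directions, 6 of 32 higher in WT and 8 in KO (median -0.021, or -0.062 without WT3 and 0.037 without WT1). The KO count was 4 without WT3 and 3 without WT1 or KO1 and 2 without KO2 or KO3. *Rel* was at 535, 593 and 606 CPM in WT and 403, 393 and 382 CPM in KO (log2 fold change 0.56 ± 0.061, edgeR adjusted p = 1.48e-05) and *Bcl3*, a nuclear IκB protein, was higher in WT by a log2 fold change of 0.75 ± 0.067 (edgeR adjusted p = 1.88e-06). *Cd40*, the receptor for T cell CD40 ligand, was at 61.2, 84.6 and 81.1 CPM in WT and 108, 103 and 99.4 CPM in KO (log2 fold change -0.44 ± 0.10, edgeR adjusted p = 0.00682), higher in each KO library. *Nfkb1* (log2 fold change 0.16 ± 0.055) was not called. Among 32 genes of the BCL2 family and caspases, 2 were higher in WT and 4 in KO (2 without WT1 or WT3 and 1 without KO1, KO2 or KO3; median 0.001, or -0.0091 without WT1 and 0.074 without KO2). *Bcl2*, which prevents apoptosis, was at 161, 134 and 145 CPM in WT and 227, 225 and 202 CPM in KO (log2 fold change -0.57 ± 0.073, edgeR adjusted p = 6.54e-05), and its antagonist *Bcl2l11* (BIM) at 182, 168 and 185 CPM in WT and 112, 108 and 106 CPM in KO (log2 fold change 0.71 ± 0.063, edgeR adjusted p = 1.54e-06). The groups did not overlap for either gene. *Mcl1* (log2 fold change -0.12 ± 0.06) was not called.

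Cholesterol synthesis and uptake genes were called higher in KO in 14 of 35 and higher in WT in 2 (median -0.21). *Sc4mol*, a sterol demethylase of the pathway, was at 31.1, 33.1 and 34.1 CPM in WT and 55.1, 56.8 and 58.00 CPM in KO (log2 fold change -0.79 ± 0.086, edgeR adjusted p = 1.32e-05). The groups were separate for this gene. *Abca1*, the exporter, was at 447, 443 and 443 CPM in WT and 277, 254 and 266 CPM in KO (log2 fold change 0.74 ± 0.057, edgeR adjusted p = 3.03e-07), above KO in every WT library. *Fdps* (log2 fold change -0.85 ± 0.20, edgeR adjusted p = 0.0125) had the largest difference among called members, and its call was lost without KO3 (log2 fold change -0.67, edgeR adjusted p = 0.0844). The number higher in KO was 9 without WT3 or KO3 and 7 without KO2, and that higher in WT was 1 without WT1, WT3, KO2 or KO3. Fatty acid synthesis genes were called in 4 of 18 higher in WT and 2 in KO, with 2 without KO1 for the first count and 1 without KO2 or KO3 and 0 without WT3 or KO1 for the second. *Scd1*, a fatty acid desaturase, was at 1200.5, 1129 and 1246 CPM in WT and 636, 634 and 657 CPM in KO (log2 fold change 0.89 ± 0.058, edgeR adjusted p = 4.8e-08).

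**Figure D4:**
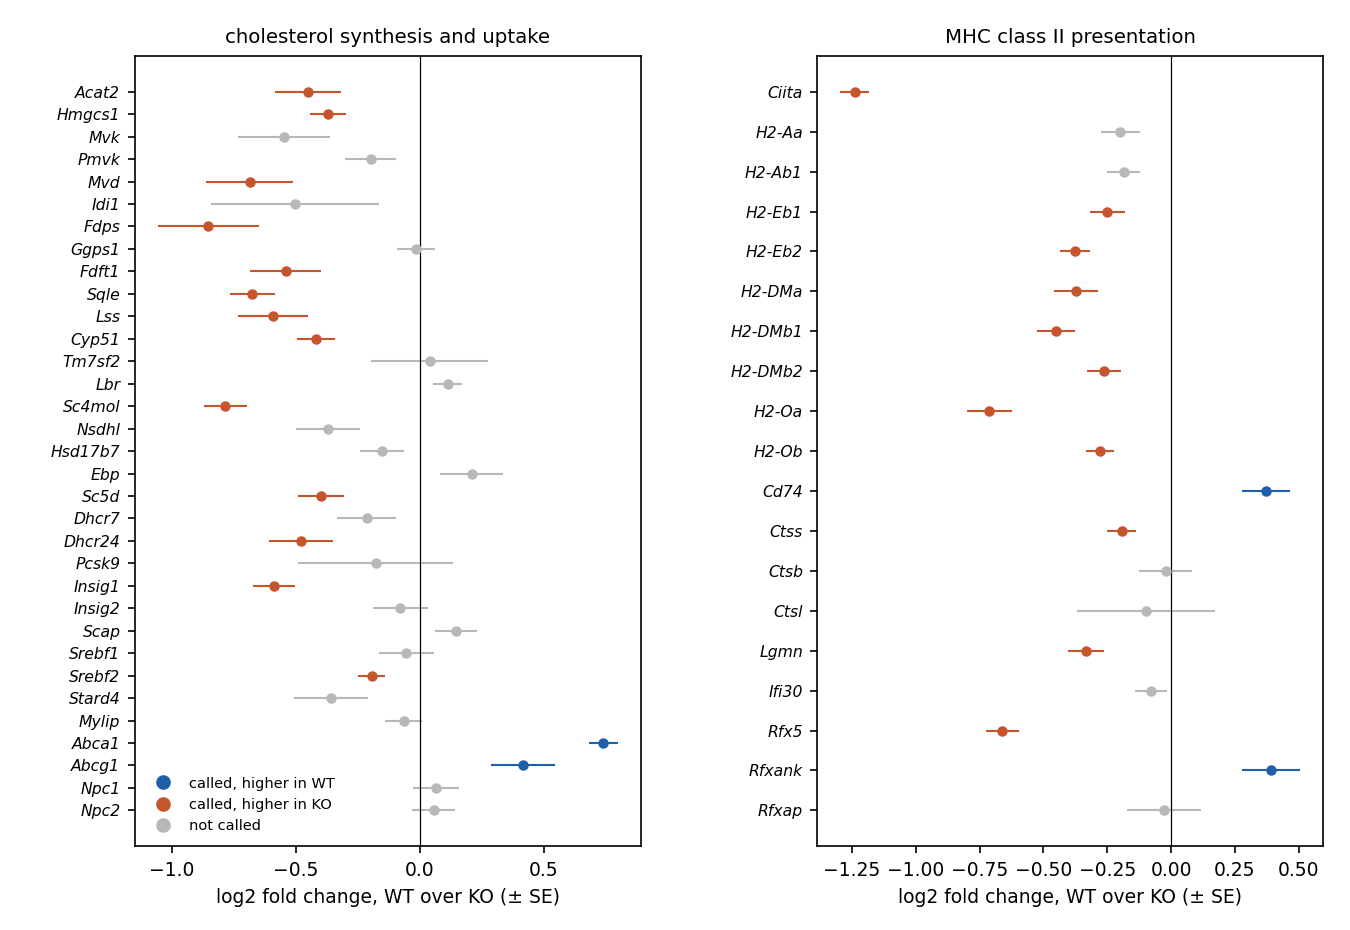
Log2 fold changes, WT over KO, with standard errors (bars) for tested members of the cholesterol list (left) and the MHC class II list (right, 19 genes), coloured by whether the gene was called higher in WT, called higher in KO or not called. Most called members of both lists lie on the KO side, 11 of them on the right, with *Ciita* farthest from 0 on the right and *Abca1* on the WT side on the left.

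Ribosomal protein, ribosome biogenesis and oxidative phosphorylation genes were called less often than the 10.9% of all genes tested. Glycolysis and glucose transport genes were called at 10.3%, near that share. None of the 76 cytosolic ribosomal protein genes was called by edgeR (4 at an unadjusted p under 0.05; DESeq2 and limma-voom called 0; 1 without WT2 or KO3 higher in WT), with a median of -0.023, or -0.12 without WT1 and 0.059 without WT2. None of the 76 oxidative phosphorylation subunit genes was called (4 at an unadjusted p under 0.05; DESeq2 and limma-voom called 0; 4 without WT2 higher in WT), although 62 of them had a positive log2 fold change and the median was 0.076, against 0.0048 over all genes tested. The median was 0.020 without WT1, 0.039 without KO1 and 0.13 without WT2. Of 29 glycolysis and glucose transport genes 3 were called, all higher in WT (5 without WT2; 1 higher in KO without WT2), including *Slc2a6* at 47.6, 53.3 and 50.8 CPM in WT and 36.05, 31.1 and 28.9 CPM in KO (log2 fold change 0.66 ± 0.10, edgeR adjusted p = 0.000351) and *Hif1a* (log2 fold change 0.30 ± 0.061, edgeR adjusted p = 0.00388). Of 45 ribosome biogenesis genes 2 were higher in WT, and 1 without any single library. *Mxi1*, a MYC antagonist, was one of them (log2 fold change 0.58 ± 0.091, edgeR adjusted p = 0.000483). A single gene of this list was higher in KO without WT1 or WT3.

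Stress and cell cycle lists held small counts that moved with single libraries. Of 30 heat shock genes 4 were higher in WT (2 without WT1 or KO3 and 1 without WT3, KO1 or KO2). *Dnajb2* was higher in WT by a log2 fold change of 0.53 ± 0.11 (edgeR adjusted p = 0.00439). Of 35 genes of the unfolded protein and integrated stress responses 3 were higher in WT (5 without WT2) and 2 in KO (1 without KO1); *Eif2ak3*, the stress sensor PERK, was at 219.7, 229 and 218 CPM in WT and 141, 152 and 151 CPM in KO (log2 fold change 0.59 ± 0.059, edgeR adjusted p = 5.74e-06) and *Hspa5*, the chaperone BiP, was not called (log2 fold change 0.081 ± 0.059). Of 50 interferon-stimulated genes 5 were higher in WT (9 without WT2 and 2 without WT3 or KO2 and 1 without KO1 or KO3) and 4 in KO (2 without KO1 or KO3). *Trim25* was at 986, 991 and 1104 CPM in WT and 464, 517 and 470.5 CPM in KO (log2 fold change 1.09 ± 0.066, edgeR adjusted p = 2.15e-08), higher in every WT library. Of 63 DNA replication and mitosis genes 5 were higher in WT and 4 in KO (10 without KO1 and 2 without KO2 or KO3). *Cdt1*, a replication licensing factor, was at 106, 89.6 and 109 CPM in WT and 50.5, 56.2 and 54.3 CPM in KO (log2 fold change 0.92 ± 0.085, edgeR adjusted p = 2.37e-06), higher in every WT library, and *Mki67*, a marker of cycling cells, at 70.2, 80.7 and 98.9 CPM in WT and 98.6, 171 and 179 CPM in KO (log2 fold change -0.83 ± 0.17, edgeR adjusted p = 0.00424), higher in KO although KO1 overlapped WT3. Of 18 clock genes 2 were higher in WT (1 without WT1, WT3, KO1 or KO2) and 1 in KO. *Per1*, a clock repressor, was at 92.7, 115 and 106 CPM in WT and 61.6, 64.7 and 66.6 CPM in KO (log2 fold change 0.70 ± 0.082, edgeR adjusted p = 2.6e-05), higher in every WT library.

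**Figure D5:**
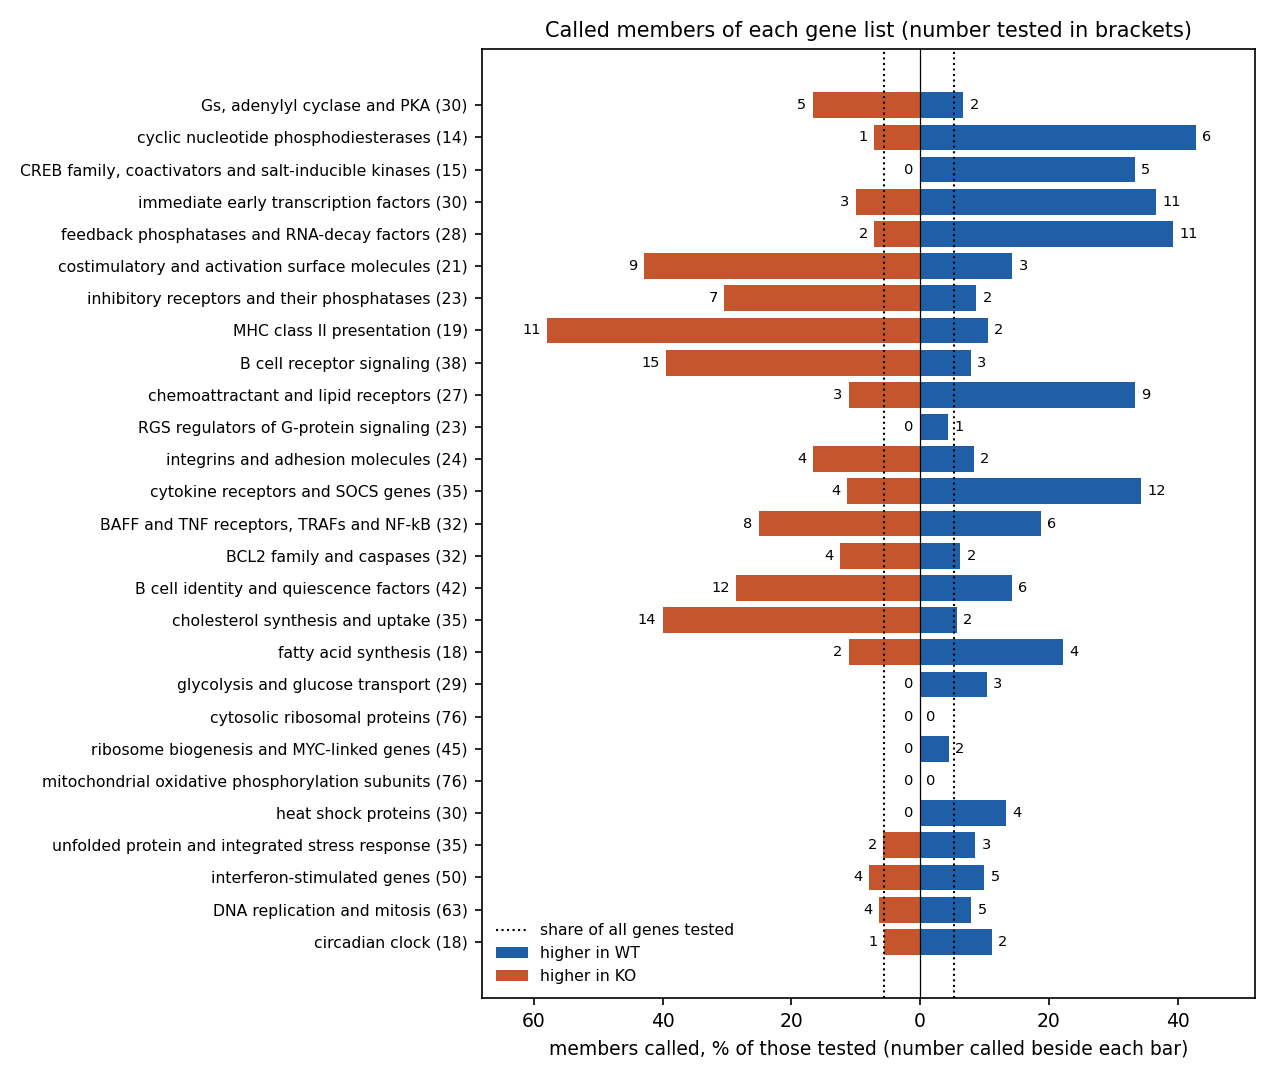
Bars give, for each of the 27 gene lists (number tested in brackets), the share of tested members called higher in WT (blue, to the right) and higher in KO (orange, to the left) in percent, with the number of called members beside each bar; dotted lines mark the shares over all genes tested, 5.22% and 5.67%. Phosphodiesterases have 6 of 14 members to the right and MHC class II genes 11 of 19 to the left, and ribosomal protein and oxidative phosphorylation genes have no bar.

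Beyond these lists, the 15 named genes with the largest differences towards KO held genes of varied kinds. *Gm11428* was at 10.5, 5.68 and 6.65 CPM in WT and 20.7, 23.7 and 18.7 CPM in KO (log2 fold change -1.48 ± 0.19, edgeR adjusted p = 8.45e-05). *Olfr98*, annotated as an olfactory receptor, was at 5.35, 5.36 and 3.27 CPM in WT and 13.9, 11.7 and 10.1 CPM in KO (log2 fold change -1.39 ± 0.23, edgeR adjusted p = 0.000685). *Ffar1*, a receptor for long-chain fatty acids, was at 3.17, 2.60 and 3.16 CPM in WT and 5.44, 8.43 and 7.32 CPM in KO (log2 fold change -1.24 ± 0.26, edgeR adjusted p = 0.00514). All KO libraries were above all WT libraries in these genes. *Ptpn14*, a phosphatase (-1.10), *Cacna1d*, a calcium channel subunit (-1.09), *Tmem154* (-1.09), *Lmo2*, a transcription cofactor (-1.07), and the transcripts *Gm15880* (-1.22) and *Gm11346* (-1.03) completed the 15 named genes with the largest differences, as log2 fold changes. Among abundant genes the differences were smaller. *Ptprc* (CD45), the phosphatase that licenses antigen receptor signaling, was at 1217, 1268 and 1296 CPM in WT and 1649, 1519 and 1542 CPM in KO (log2 fold change -0.32 ± 0.058, edgeR adjusted p = 0.00173), and the B cell scaffold *Bank1* at 867, 941 and 859.6 CPM in WT and 1176, 1089.7 and 1157 CPM in KO (log2 fold change -0.36 ± 0.059, edgeR adjusted p = 0.000746). *Tmsb4x*, which sequesters actin monomers, was at 3627, 3103 and 3561 CPM in WT and 2279, 2457 and 2574 CPM in KO (log2 fold change 0.49 ± 0.069, edgeR adjusted p = 0.000166). *Msn* (moesin), which links actin to the membrane, was at 1905, 1634 and 1684 CPM in WT and 1395, 1379 and 1341 CPM in KO (log2 fold change 0.34 ± 0.064, edgeR adjusted p = 0.00205). Each of these 4 genes had separate groups. *Macf1* (-0.38), *Mycbp2* (-0.37) and *H2-Ob* (-0.28) were the other abundant genes higher in KO, and *Lars2* (0.58) and *Mll5* (0.32) were those higher in WT, again as log2 fold changes. *Lars2* was highest in WT1, the library that stood apart.

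Before culture, 107 of the 11123 genes tested at 4 h were called (0.962%). Of the 581 genes higher in WT at 4 h, 10 were called at 0 h (1.72%), 7 of them in the same direction, and of the 631 higher in KO, 22 were called at 0 h (3.49%), 9 in the same direction. Genes that were not tested at 0 h count here as not called. Among them were *Eng*, *Cables1*, *Msrb3*, *Rnf125*, *Fosl2*, *Rundc3b*, *Pde7b* and *Nr4a2*. The test of the difference itself, as a genotype by culture interaction over 12 libraries, called 6.39% of 11572 genes, and among those called at 4 h it called 245 of 578 tested genes higher in WT and 360 of 631 higher in KO. The 4 h libraries entered both tests, so these counts are not independent of the calls at 4 h. Libraries at 0 h and at 4 h carry the same replicate numbers within each genotype. The interaction fit held no term for mouse, so its errors ignore any pairing between the times. *Crem* differed by -0.12 ± 0.15 (edgeR adjusted p = 0.797) at 0 h, with an interaction of 3.15 ± 0.20 (edgeR adjusted p = 6.83e-10). *Btla* differed by -0.091 ± 0.077 (edgeR adjusted p = 0.685) at 0 h, with an interaction of -1.39 ± 0.12 (edgeR adjusted p = 6.05e-08). *Klf2*, a quiescence and trafficking factor, changed sides, from 0.43 ± 0.051 (edgeR adjusted p = 0.000341) at 0 h to -0.59 ± 0.075 (edgeR adjusted p = 6.43e-05) at 4 h. The apoptosis gene *Bmf* was already higher in WT at 0 h, by 0.60 ± 0.12 (edgeR adjusted p = 0.0287), and remained higher at 4 h, by a log2 fold change of 0.66 ± 0.12 (edgeR adjusted p = 0.00144), with an interaction of 0.048 ± 0.17 (edgeR adjusted p = 0.93). *Lars2* was also higher in WT at 0 h, by 0.34 ± 0.060 (edgeR adjusted p = 0.0127), with an interaction of 0.24 ± 0.15 (edgeR adjusted p = 0.472).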

How the data were processed

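The sources used here describe RNA sequencing of sorted follicular B cells on an Illumina instrument. The submitters' processing notes name STAR, HTSeq, DESeq2 and mm10, and the authors deposited whole-number counts of reads per gene, without normalization, in 1 table for each time point. The strand setting and gene annotation are not given in the sources used here, so overlapping and antisense genes and near-identical copies are uncertain. Molecular identifiers are not described, so errors cover counting and the spread between mice only. Library totals ran from 6098941 to 9147799 counts. All columns were mapped to samples by name, and 0 rows lacked a gene name.

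Counts were tested with edgeR 4.0.16 in R 4.3.3 (TMM scaling, filterByExpr, quasi-likelihood F test, Benjamini-Hochberg over all 11123 genes tested), WT against KO with 3 libraries each and no covariate. Genes were called at an adjusted p under 0.05. CPM used TMM-scaled totals, and a standard error is the log2 fold change divided by the square root of F. The interaction was fitted over 12 libraries taken as independent, without a term for mouse. The script was tested on simulated data. DESeq2 1.42.0, limma-voom (limma 3.58.1), other scalings and filters and the omission of each library were alternatives. The replicates differed by more than sampling noise (chi-square per degree of freedom 2.74 to 9.30). With 3 against 3, a permutation test of a single gene cannot give a p under 0.1, so none was used.

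Genes were named by a rule: *Gpr174*; the 15 in each direction with the largest difference, and the 5 with the highest level, among called genes with separate groups, at least 5 CPM in the higher group and a call in all 6 fits without 1 library; genes within 1000000 bases of *Gpr174*; and up to 4 called members in each direction and up to 3 uncalled members of each list. Others are said in the text to have been named after their values were seen. Some genes that this rule names are not reported here. The comparison and the gene lists were chosen with earlier results of these data known. Symbols were matched to RefSeq for 11051 of the genes. Libraries of both genotypes carry the replicate numbers 1 to 3. Over all genes the deviations of same-numbered libraries correlated by 0.0204, -0.101 and 0.0639, and those of differently numbered libraries by -0.102 to 0.0724. No pairing by number was seen over all genes, but these values cannot exclude one in part of the genes.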

Additional observations from a re-analysis of the deposited data

Results flagged for a closer look

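Among genes called at 4 h, the genotype by culture interaction (edgeR, 12 libraries) was called for 245 of 578 tested genes higher in WT and for 360 of 631 on the KO side. Over all 11572 genes in that fit it called 6.39%. The genes were picked by the same 4 h libraries that entered the interaction, so these counts are not independent of that choice. The 4 named genes below were called at both times, and their values are log2 fold changes, WT over KO. *Klf2* was higher in WT at 0 h, by 0.43 ± 0.051 (edgeR adjusted p = 0.000341), and higher in KO at 4 h, by -0.59 ± 0.075, an interaction of -1.02 ± 0.093 (edgeR adjusted p = 1.85e-07). *Cd83* was higher in KO at 0 h, by -0.31 ± 0.065 (edgeR adjusted p = 0.0356), and higher in WT at 4 h, by 0.68 ± 0.084, an interaction of 0.98 ± 0.12 (edgeR adjusted p = 6.62e-06). *Cd38* was higher in KO at both times, by -0.25 ± 0.052 (edgeR adjusted p = 0.029) at 0 h and by more at 4 h, -0.65 ± 0.074, an interaction of -0.40 ± 0.10 (edgeR adjusted p = 0.0104). *Gpr174* itself was higher in WT at both times, by 1.02 ± 0.062 (edgeR adjusted p = 2.3e-07) at 0 h and by less at 4 h, 0.56 ± 0.068, an interaction of -0.47 ± 0.092 (edgeR adjusted p = 0.00208). In groups of 3 libraries no test for a single deviating library was applied.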

How the results depend on the processing

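The edgeR test called 1212 genes, 581 on the WT side and 631 on the KO side, and at the stricter adjusted p under 0.01 it called 662, with 333 and 329, while the interaction fell from 739 to 410 genes. Leaving out 1 library gave 776 to 1361 genes, with 378 to 666 on the WT side and 398 to 695 on the KO side. The lowest totals came without KO1 (776), KO2 (812), KO3 (828) and WT3 (881), and fewer libraries enter these fits. The number over 2-fold was 126 to 169, and that of the interaction 497 to 743. Other scalings and filters gave 1148 to 1209 genes, all 4 groups in 1 fit gave 1301, limma-voom 1221 (1174 shared) and DESeq2 1040 (1014 shared). Scaling by library totals alone gave 1170 genes, changed the split to 497 and 673, and moved the all-gene median from 0.0048 to -0.016 on the log2 scale. A fit with the replicate number as a block called 1062 genes, 496 on the WT side and 566 on the KO side, of which 1025 were among the 1212. Of 2702 alternative values for the named genes at 4 h, none reversed a called direction, 58 lost the call and 20 gained it. DESeq2 did not call *Cd1d1* (adjusted p = 0.0621), *Cd74* (0.116), *Lars2* (0.0605), *Mki67* (0.0511) or *Mybl1* (0.207), where edgeR did. With the block *Cd1d1* (0.0514) and *Irf4* (0.058) lost their calls, and limma-voom (0.0695) and the fit of all 4 groups (0.0768) did not call *Mybl1*. Of 672 list counts under alternatives 81 moved by over 1.5 times. The median standard error was 0.287 in the lowest of the 4 bins by level and 0.0664 in the highest, so small differences of weakly expressed genes were not detectable at this depth.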

Other observations

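Markers of other B cell stages, which the report does not describe, were called in both directions. Of 8 germinal centre genes, 7 had a negative log2 fold change, that is towards KO, 5 of the 8 were at an unadjusted p under 0.05, and the median was -0.77, or -0.45 without KO3. The gene in the other direction, *Neil1*, a DNA repair enzyme, was at 51.8, 59.6 and 64.6 CPM in WT and 22.2, 24.8 and 33.4 CPM in KO (log2 fold change 1.14 ± 0.13, edgeR adjusted p = 2.29e-05), higher in every WT library. *Bcl6* and *Mybl1*, a MYB-family factor, were higher in KO, *Mybl1* by a log2 fold change of -0.77 ± 0.23 (edgeR adjusted p = 0.0441). At 0 h *Mybl1* was already called higher in KO by edgeR (log2 fold change -1.07), though not by DESeq2 (DESeq2 adjusted p = 0.144). At 4 h the call of *Mybl1* was lost without WT1 (edgeR adjusted p = 0.132) or KO3 (edgeR adjusted p = 0.246). The count higher in KO was 5 without KO1 and 1 without WT1 or KO3, and the list summed to 196 to 237 CPM in WT and 266 to 301 CPM in KO. Most of this sum came from *Bcl6* and *Neil1*, so the median rests largely on genes at low levels. Of 3 tested transitional B cell genes, *Cd93*, a lectin-like surface protein, was at 38.6, 29.5 and 31.7 CPM in WT and 23.3, 18.1 and 21.96 CPM in KO (log2 fold change 0.66 ± 0.13, edgeR adjusted p = 0.00346) and *Vpreb3*, a chaperone of immunoglobulin chains, at 123, 115 and 122 CPM in WT and 79.3, 81.2 and 96.6 CPM in KO (log2 fold change 0.49 ± 0.078, edgeR adjusted p = 0.000591). Both were higher in every WT library, while *Cd24a* had a log2 fold change of -0.20 ± 0.092 and was not called, though it was called higher in KO without WT3 (log2 fold change -0.32, edgeR adjusted p = 0.027). Among marginal zone genes *Cd1d1*, which presents lipid antigens, was called higher in KO by -0.45 ± 0.12 (edgeR adjusted p = 0.0281) on the log2 scale. Without WT1 the list had 2 genes higher in KO, and without any other single library it had 0. Among dendritic cell genes *Flt3*, a cytokine receptor kinase, was at 5.01, 7.14 and 8.498 CPM in WT and 1.63, 2.36 and 3.24 CPM in KO (log2 fold change 1.53 ± 0.30, edgeR adjusted p = 0.00344), again with separate groups, and 1 of 3 tested members was called. Of 7 plasma cell genes *Irf4*, a factor of activated and antibody-secreting cells, was higher in WT by 0.23 ± 0.064 (edgeR adjusted p = 0.0344) on the log2 scale, and the count of genes higher in WT was 2 without WT2 and 0 without WT1, KO1, KO2 or KO3, with 1 higher in KO without WT1. None of 5 tested B-1 cell genes was called by edgeR, DESeq2 or limma-voom, with 1 at an unadjusted p under 0.05, and 1 was higher in KO without WT1.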
